A study of Mus musculus with 4 samples.

Results

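The genes described here encode the proteasome, the barrel-shaped protease that degrades ubiquitin-tagged proteins. They were taken by symbol: protein-coding mouse genes whose names begin with Psma, Psmb, Psmc, Psmd or Psme followed by a digit. There were 46 such genes among 21631 protein-coding genes on the chromosomes of the peak list. Of these, 5 encode interferon-inducible subunits (Psmb8, Psmb9, Psmb10, Psme1 and Psme2) and were set beside the other 41. Within those 41, 36 encode constitutive subunits, assembly factors and activators. Psmc3ip and Psme3ip1 are named for an interaction with a proteasome protein, and Psma8, Psmb11 and Psme2b are tissue-specific forms or a second gene copy.

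The chromatin of mouse colonic organoids, self-organising cultures of colonic epithelium, was assayed by bulk ATAC-seq, in which the transposase Tn5 inserts sequencing adapters into accessible DNA. The 4 groups were organoids from wild-type mice with chronic colitis or from healthy wild-type controls, each exposed for 24 h to 10 µM T-5224, an inhibitor of the transcription factor AP-1, or to 0.1% DMSO. Every group held 1 library, all libraries carried the same batch label, and all organoids had been viably frozen and thawed before nuclei were prepared. Animal age was not given, and the library names share one code within the colitis organoids and another within the controls.

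The deposited data were a single peak list with no value per library. It is not stated which of the libraries the peaks were called on. The values below therefore describe accessible sites in these organoid cultures, and colitis could not be compared with control, nor T-5224 with DMSO. The list held 157922 summits in 113404 regions. Each summit carries a linear fold enrichment over background, here called its fold. All folds were whole pileups plus 1 divided by a single constant of 8.63. From this the pileup, the number of overlapping reads or fragments at each summit, could be recovered (17 at the lowest summit). Whether reads or fragments were counted is not stated. The background pileup was thus 7.63 for every site. Intervals given for single genes are exact Poisson 95% intervals of that pileup. They cover counting error only, not the spread between cultures, and the counted reads or fragments were not identified as independent molecules. The organoid label was checked against marker genes. All 12 epithelial markers examined had a summit at a gene end, against 64.3% of all protein-coding genes. Their median was 35.9-fold against 9.62-fold, and they ranged from Car1 (8.93-fold), Lgr5 (10.2-fold) and Krt20 (16.8-fold) to Krt8 (59.1-fold) and Cldn7 (61.3-fold). Of 11 leukocyte markers 4 had one and the median was 0. Ptprc and Cd3e had none, and Itgax had the highest, at 33.3-fold.

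The proteasome consists of a 20S core and regulatory caps. The core stacks rings of alpha subunits, which gate the entrance, around rings of beta subunits, of which Psmb5, Psmb6 and Psmb7 carry the proteolytic sites. The 19S cap recognises ubiquitin chains and unfolds substrates with a ring of ATPases. Interferon gamma induces the replacement subunits Psmb8, Psmb9 and Psmb10, which take the places of Psmb5, Psmb6 and Psmb7 in the immunoproteasome. It also induces Psme1 and Psme2, which form a ring-shaped activator of the core. Immunoproteasomes favour peptides that fit MHC class I molecules, and inflamed intestinal epithelium is known to raise their subunits.

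Constitutive proteasome genes had strong, sharply placed accessible sites at their starts. Not all inducible genes had strong ones, and 5 genes are too few to compare their share with that of all protein-coding genes. All 30 constitutive genes with an annotated start had a summit of at least 20-fold within 250 bp of it, the lowest being 20.9-fold. Among the 5 inducible genes Psme2 (50.9-fold) and Psmb9 (33.5-fold) reached this level. Psme1 (12.3-fold), Psmb10 (4.99-fold) and Psmb8 (3.59-fold) lay below all of the 30. Psmb8 and Psmb10 each also had a 22.0-fold summit farther off, 513 bp upstream and 1309 bp inside the gene respectively. Whether the single annotated start of these genes is the one in use was not tested. The starts come from RefSeq, and 39 of the 46 genes had an entry. Psma8, Psmb1, Psmb2, Psmb7, Psmc3, Psmd3 and Psmd7 had none and were measured from their outer gene ends.

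The bases before the starts of the inducible genes and of their constitutive counterparts are shown first, because the contrast in accessible sites concerns these windows. Each sequence is the 200 bases before the annotated start, written 5′ to 3′ on the strand of the gene, from RefSeq on GRCm38.p6, whose coordinates are those of mm10. Capitals mark matches, on either strand, to motifs that are spelled out further on. Motif counts used a longer window, from 250 bases before to 50 bases after the start. The 5 inducible genes come first. In this stretch Psmb8 has a STAT-type match, Psmb9 an NF-Y box and a GC box, Psme1 and Psme2 a GC box each, and Psmb10 has none of the motifs searched.
Psmb8 (chr17:34197995-34198194, + strand): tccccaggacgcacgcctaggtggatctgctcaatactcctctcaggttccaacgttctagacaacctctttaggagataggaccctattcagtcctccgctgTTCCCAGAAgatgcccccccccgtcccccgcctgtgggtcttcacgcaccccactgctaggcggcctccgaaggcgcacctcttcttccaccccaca
Psmb9 (chr17:34187331-34187530, - strand): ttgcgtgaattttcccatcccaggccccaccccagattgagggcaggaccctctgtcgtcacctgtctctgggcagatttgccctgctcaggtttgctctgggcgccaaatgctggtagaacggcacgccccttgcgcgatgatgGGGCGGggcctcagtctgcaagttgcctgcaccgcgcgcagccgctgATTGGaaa
Psmb10 (chr8:105938393-105938592, - strand): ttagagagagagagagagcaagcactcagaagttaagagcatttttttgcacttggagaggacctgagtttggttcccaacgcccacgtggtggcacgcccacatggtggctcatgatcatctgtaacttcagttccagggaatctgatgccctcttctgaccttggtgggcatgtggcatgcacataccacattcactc
Psme1 (chr14:55578294-55578493, + strand): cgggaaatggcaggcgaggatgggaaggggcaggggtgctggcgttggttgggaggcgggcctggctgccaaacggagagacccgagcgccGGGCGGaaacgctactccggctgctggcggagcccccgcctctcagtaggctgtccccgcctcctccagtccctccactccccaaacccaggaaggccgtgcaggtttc
Psme2 (chr14:55591102-55591301, - strand): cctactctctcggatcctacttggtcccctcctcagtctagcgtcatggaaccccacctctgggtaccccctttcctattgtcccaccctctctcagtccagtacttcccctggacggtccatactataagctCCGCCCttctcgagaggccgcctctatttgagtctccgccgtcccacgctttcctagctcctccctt

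The corresponding bases of 3 constitutive counterparts follow. Psmb5 has a match to the antioxidant response element (ARE) core, Psmb6 has an ARE match and a GC box, and Psme3 has 2 ETS matches and an NF-Y box. Psmb7, the counterpart of Psmb10, had no RefSeq start entry.
Psmb5 (chr14:54617996-54618195, - strand): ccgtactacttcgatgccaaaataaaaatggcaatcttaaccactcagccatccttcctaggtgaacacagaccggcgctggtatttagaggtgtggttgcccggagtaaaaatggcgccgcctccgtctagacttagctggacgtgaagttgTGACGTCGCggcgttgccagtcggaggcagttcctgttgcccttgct
Psmb6 (chr11:70525157-70525356, + strand): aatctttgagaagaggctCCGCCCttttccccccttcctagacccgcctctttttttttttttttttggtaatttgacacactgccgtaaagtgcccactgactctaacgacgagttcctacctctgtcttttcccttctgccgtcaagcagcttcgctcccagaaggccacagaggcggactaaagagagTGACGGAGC
Psme3 (chr11:101316013-101316212, + strand): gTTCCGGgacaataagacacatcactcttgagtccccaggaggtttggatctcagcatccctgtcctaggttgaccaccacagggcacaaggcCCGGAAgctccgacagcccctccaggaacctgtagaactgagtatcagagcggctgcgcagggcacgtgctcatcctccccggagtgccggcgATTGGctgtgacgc

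Measured by the wider rule, 42 of the 46 genes (91.3%, Wilson 95% interval 79.7 to 96.6%) had a summit within 1000 bp of either outer end, compared with 64.3% of all protein-coding genes. A summit of at least 20-fold stood at an outer end of 40 genes (87.0%, 74.3 to 93.9%), compared with 39.7% of all protein-coding genes. Counting the gene body as well, 44 genes (95.7%) had a summit, against 74.5%. The median fold at an outer end was 31.6 for the 46 genes and 9.62 for all protein-coding genes, with genes without a summit taken as 0. It was 32.9 for the 36 constitutive genes and 22.0 for the inducible 5. Genes are not replicates, so these shares and medians describe the list and carry no test.

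**Figure D1:**
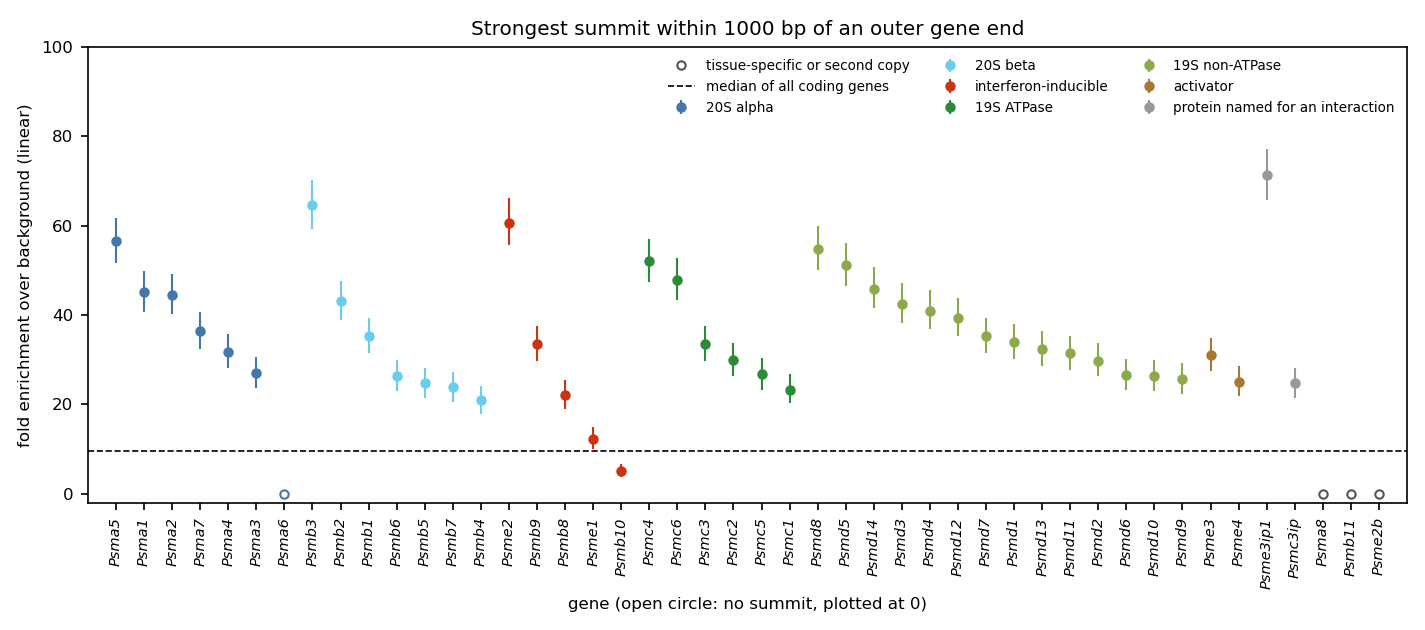
Linear fold enrichment of the strongest summit within 1000 bp of an outer gene end, for each of the 46 genes in their role groups. Bars are exact Poisson 95% intervals, open circles are genes without a summit, and the dashed line is the median of all protein-coding genes (9.62). The inducible genes in red spread from 4.99 to 60.6-fold, while the lowest constitutive gene with a summit, Psmb4, is at 20.9-fold.

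Psmb8 encodes the inducible chymotrypsin-like subunit and lies on chromosome 17 (chr17:34198195-34201454, plus strand, mm10), directly after Tap1, which encodes a subunit of the peptide transporter of the MHC class I pathway. Its region spanned 1441 bp (chr17:34197378-34198818) and held 2 summits. The stronger one, at 22.0-fold (pileup 189, 19 to 25.4), lay 513 bp upstream of the start, between the upper end of Tap1, 970 bp upstream, and Psmb8. The weaker one, at 3.59-fold (pileup 30, 2.46 to 5.08), lay 217 bp downstream of the start. Psmb5, the constitutive counterpart, had 24.7-fold (pileup 212, 21.5 to 28.2) at 146 bp upstream. At the outer end the Psmb8 pileup was 0.892 times that of Psmb5, with an exact binomial 95% interval of 0.729 to 1.09 that includes 1. Within 250 bp of the start it was 0.142 times (0.0932 to 0.208), or 7.07 times lower. The choice of window therefore decides whether the genes of this pair differ beyond counting error.

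Psmb9 encodes the inducible counterpart of Psmb6 and is transcribed away from Tap1 (chr17:34182030-34187330, minus strand). The starts of Psmb9 and Tap1 are 226 bp apart and share a single strong summit of 33.5-fold (pileup 288, 29.8 to 37.6). That summit lay 193 bp upstream of the Psmb9 start and 33 bp upstream of the Tap1 start, and so was closer to Tap1. A second summit in the same region, 505 bp inside Psmb9, had 2.67-fold. Psmb6 had 26.3-fold (pileup 226, 23 to 30.0) at 36 bp upstream of its start. The Psmb9 pileup was 1.27 times that of Psmb6 (1.07 to 1.52). Psmb9 was the one inducible beta gene whose site exceeded that of its counterpart, and the list does not say how much of that site belongs to either of its neighbouring genes.

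Psmb10 encodes the inducible counterpart of Psmb7 and lies on chromosome 8 (chr8:105935728-105938392, minus strand). Its region (chr8:105936744-105938527, 1784 bp) reached from just before the start deep into the gene and held 3 summits. At 213 bp and at 592 bp downstream of the start the fold was 4.99 (pileup 42, 3.63 to 6.70). The strongest lay 1309 bp inside the gene, at 22.0-fold (pileup 189, 19 to 25.4). Psmb7 had 23.8-fold (pileup 204, 20.6 to 27.2) at its outer end. The Psmb10 pileup was 0.206 times that of Psmb7 (0.144 to 0.288) at the outer end, and 0.926 times (0.756 to 1.13) when the gene body was counted. As with Psmb8, the accessible site was about as strong as that of the constitutive counterpart, but it stood away from the annotated start.

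Psme1 and Psme2 encode the alpha and beta subunits of the inducible activator ring and lie close together on chromosome 14 in opposite orientation. Psme1 (chr14:55578494-55581527, plus strand) had its strongest summit 19 bp after its start, at 12.3-fold (pileup 105, 10.1 to 14.9). A minor one of 2.78-fold lay 562 bp upstream. Psme1 was thus the one inducible gene with its strongest summit in the position typical of the constitutive genes. Its interval nevertheless lay wholly below that of Psmb4 (17.9 to 24.1), the lowest constitutive gene.

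Psme2 (chr14:55587440-55591101, minus strand) had the strongest and widest site of the 5, a region of 2887 bp with 4 summits. A summit of 50.9-fold (pileup 438, 46.3 to 55.9) lay 71 bp upstream of its start. A second, of 60.6-fold (pileup 522, 55.6 to 66.1), lay 568 bp upstream. That second summit was 73 bp upstream of the start of Rnf31, which encodes a subunit of the linear ubiquitin ligase and is transcribed the other way. The remaining summits, at 877 bp downstream and 1579 bp upstream, had 3.83-fold and 2.20-fold. Within 250 bp of the starts the Psme1 pileup was 0.240 times that of Psme2 (0.192 to 0.297), although their products assemble into 1 ring.

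Psme3 encodes the related nuclear activator, which interferon gamma does not induce, and had 31.0-fold (pileup 266, 27.4 to 34.9) at 121 bp upstream. Within 250 bp of the start the Psme1 pileup was 0.395 times that of Psme3 (0.312 to 0.497) and the Psme2 pileup 1.65 times (1.41 to 1.92). The inducible pair thus lay on both sides of the constitutive activator. Ranked among all protein-coding genes by fold at an outer end, Psme2 stood at the 95.5th percentile, Psmb9 at the 76.3rd, Psmb8 at the 62.7th, Psme1 at the 52.9th and Psmb10 at the 43.3rd. The inducible genes did not form a group of uniform accessibility.

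**Figure D2:**
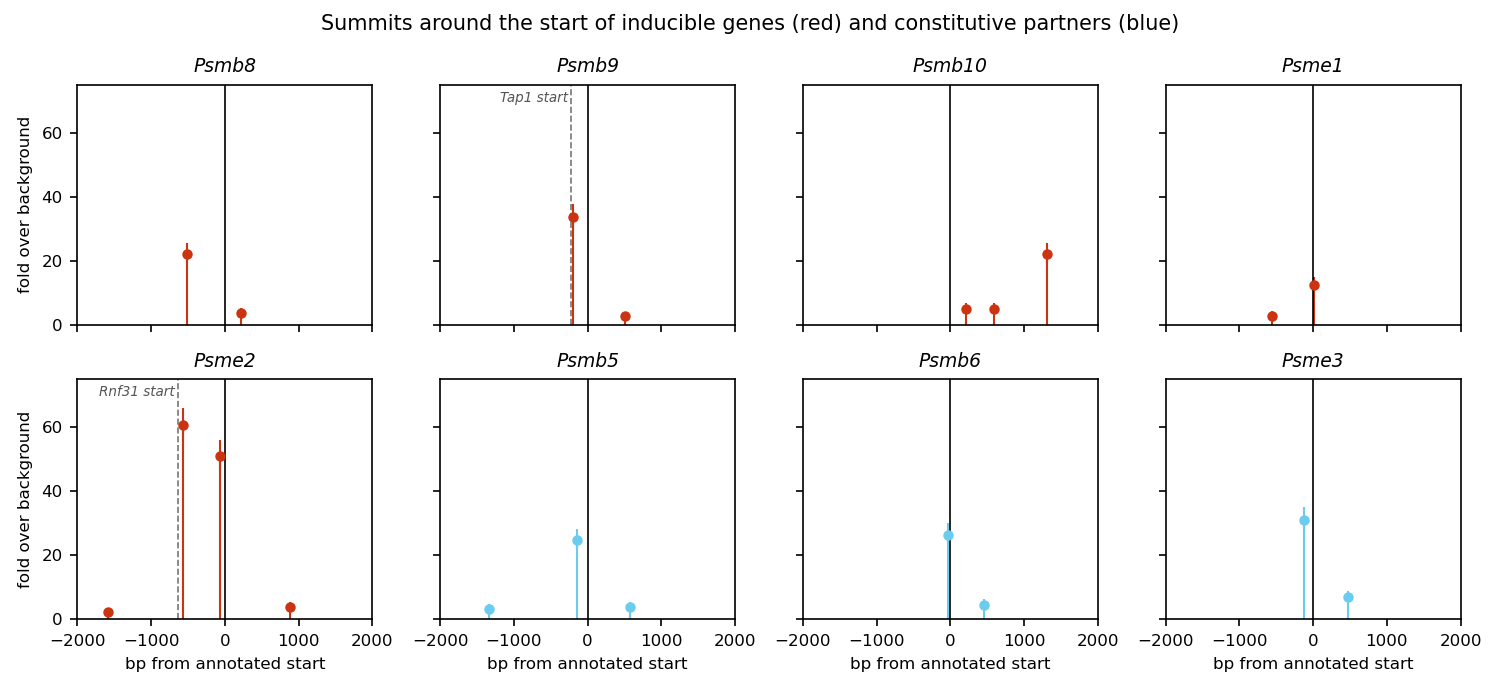
Summits around the annotated start of the 5 inducible genes (red) and of Psmb5, Psmb6 and Psme3 (blue), with the linear fold on the vertical axis and the distance in bp on the horizontal axis, upstream to the left. Bars are exact Poisson 95% intervals, the solid line is the start of the gene and dashed lines are starts of divergent neighbours. The strongest Psmb8 and Psmb10 summits stand 513 bp before and 1309 bp after the start, and those of Psmb9 and Psme2 stand beside the starts of Tap1 and Rnf31.

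The strongest summit also differed between the groups in its position. In all 30 constitutive genes with a start, the strongest summit within 1000 bp lay between 146 bp upstream and 142 bp downstream, and 18 of these summits were upstream. Their median distance was 62.5 bp, and Psmd11, a subunit of the cap's lid, had its summit on the annotated start itself. Of the 5 inducible genes, Psme1 alone had its strongest summit within 150 bp. Their median distance was 513 bp with Psmb10 taken at 592 bp. An equal Psmb10 summit lay at 213 bp, and with that one the median was 213 bp. Psme2 also had a 50.9-fold summit 71 bp upstream of its start. The strongest summits of Psme2 and Psmb9 lay closer to the starts of Rnf31 (73 bp) and Tap1 (33 bp) than to their own. Among the 11148 protein-coding genes with a summit in this window, 71.2% had the strongest within 150 bp and the median distance was 88 bp. The list gives summits only, so the pileup at the start base itself is not known for genes whose summit is elsewhere. Psme3ip1 and Psmc3ip had their summits within the same range as the constitutive genes.

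**Figure D3:**
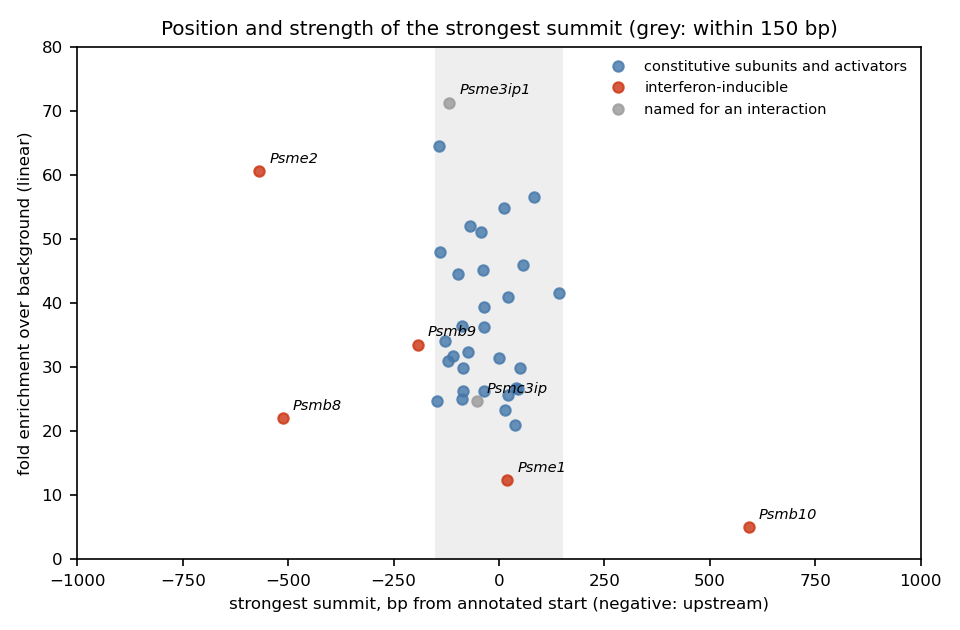
Strongest summit within 1000 bp of an annotated start in the 37 genes that had one, with its signed distance from the start in bp (upstream negative) against its linear fold. Grey shading covers 150 bp to either side of the start. All 30 constitutive genes fall inside the shading at 20.9-fold or above, and 4 of the 5 inducible genes fall outside it. Of these, the summits of Psmb9 and Psme2 lie beside the starts of their neighbours Tap1 and Rnf31.

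Counted within 250 bp of a start, 34 of 39 genes (87.2%, 73.3 to 94.4%) had a summit of at least 20-fold, against 39.2% of all protein-coding genes with a start. The 34 comprised all 30 constitutive genes (Wilson 95% interval 88.6 to 100%), 2 of 5 inducible genes, Psmc3ip and Psme3ip1. The 5 without one were Psmb8, Psmb10, Psme1, Psmb11 and Psme2b. The median fold in this window was 33.2 for the constitutive genes, 12.3 for the inducible genes and 8.29 for all protein-coding genes with a start. With a window of 100 bp, 23 of the 30 constitutive genes and 1 inducible gene, Psme2, had a summit of at least 20-fold. With 1000 bp, all 30 and 3 inducible genes did, Psmb8 being added. The share over all protein-coding genes is not given for these other windows.

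The alpha subunits form the outer rings of the core, and all 7 constitutive members had a strong start. Their folds within 250 bp of a start ran from 31.8 (Psma4) to 56.5 (Psma5), with a median of 41.5. Psma1 had 45.1-fold (40.7 to 49.8), Psma2 had 44.5-fold (40.2 to 49.2) and Psma7 had 36.4-fold (32.5 to 40.7). Psma6 and Psma3 show why outer gene ends can mislead. Psma6 had no summit at an outer end, but had 36.2-fold (32.3 to 40.4) at 36 bp upstream of its second annotated start, inside the gene bounds. Psma3 had 27-fold (23.7 to 30.7) at its outer end and 41.5-fold (37.3 to 46.0) at its annotated start.

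The beta subunits of the core ran from 20.9 to 64.6-fold at an outer end. The 4 with an annotated start had the same range within 250 bp of it, against 31.8 to 56.5-fold for the alpha subunits. Of the genes outside the inducible 5 with an end summit, 3 of the 5 lowest were beta subunits. Psmb3, which is structural, was the strongest beta subunit at 64.6-fold (59.3 to 70.2), at an end shared with Pcgf2, which encodes a Polycomb protein. Psmb2 (43.1-fold) and Psmb1 (35.2-fold), both structural, followed. The catalytic subunits Psmb6 (26.3-fold), Psmb5 (24.7-fold) and Psmb7 (23.8-fold) had overlapping intervals. Psmb4, a structural subunit, was lowest at 20.9-fold (17.9 to 24.1). The 3 catalytic genes therefore stood in the lower part of the constitutive range, and the median of the group was 26.3.

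The 6 ATPases of the 19S base ranged from 23.3 to 52.1-fold at an outer end, with a median of 31.7. Psmc4 was highest at 52.1-fold (47.4 to 57.1) and Psmc6 next at 47.9-fold (43.4 to 52.7), with overlapping intervals. Psmc3 had 33.5-fold and Psmc2 29.9-fold, the latter at an end shared with the co-chaperone gene Dnajc2. Psmc5 had 26.7-fold and Psmc1 was lowest at 23.3-fold (20.2 to 26.7). The products of these 6 genes occur once each in the ATPase ring, while the folds at their starts differed beyond counting error between the highest and the lowest.

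The 14 non-ATPase genes of the 19S cap ranged from 25.6 to 54.8-fold with a median of 34.6, and none lacked a summit. Psmd8, a lid subunit, was highest at 54.8-fold (50.0 to 60.0), at an end shared with Catsperg1. The deubiquitinase gene Psmd14 had 45.9-fold (41.5 to 50.7), and Psmd7, which encodes its partner in the lid, had 35.2-fold (31.4 to 39.4). The ubiquitin receptor gene Psmd4 had 41.0-fold (36.9 to 45.5). Psmd1 (34.0-fold) and Psmd2 (29.8-fold), the large scaffold subunits of the base, had overlapping intervals. Psmd5, Psmd9 and Psmd10 encode chaperones of base assembly that are absent from the finished particle. They were not uniform either, since Psmd5 had 51.1-fold (46.5 to 56.1) and Psmd9 (25.6-fold) and Psmd10 (26.3-fold) were the lowest of the group.

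Of the genes outside the constitutive particle, Psme3ip1, which encodes a partner of the Psme3 activator, had the highest fold of all 46 genes, at 71.3 (65.8 to 77.2). Its end is shared with Rspry1, on the opposite strand. Psmc3ip, which encodes a meiotic recombination factor, had 24.7-fold (21.5 to 28.2) at an end shared with Retreg3. Psme4, which encodes a large nuclear activator, had 25-fold (21.8 to 28.6). Psma8, the testis form of an alpha subunit, had no summit at an end and 2.43-fold inside the gene. Psmb11, the thymus-specific form of the beta subunit that Psmb5 provides elsewhere, had no summit in the gene or at an end, and neither had Psme2b, a second copy of Psme2. The lowest fold in the whole list was 2.09, so a weaker site in these genes would not be listed. Reads shared between Psme2 and Psme2b, or between other related genes, were not tested.

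Several of these sites cannot be assigned to 1 gene. Of the 42 genes with a summit at an outer end, 13 (31.0%, 19.1 to 46.0%) had it within 1000 bp of an end of another protein-coding gene, against 23.3% of all protein-coding genes with a summit. The 13 included 3 of the 5 inducible genes (Psmb8 and Psmb9 with Tap1, Psme2 with Rnf31) and 8 of 35 constitutive genes. Of the 39 genes with a start, 8 (20.5%, 10.8 to 35.5%) had the start of another coding gene on the opposite strand within 1000 bp upstream, against 8.59%. Psma7 and Ss18l1 had starts 19 bp apart, the nearest pair. The other pairs were Psmd13 with Sirt3 (85 bp), Psmc5 with Ftsj3 (101 bp), Psmd10 with Atg4a (196 bp), Psma2 with Mrpl32 (205 bp), Psme3ip1 with Rspry1 (215 bp), Psmb9 with Tap1 (226 bp) and Psme2 with Rnf31 (641 bp). Both inducible genes with at least 20-fold at the start were among these pairs. Of the 30 constitutive genes, 22 had such a summit and counted as having no neighbour. A neighbour was an outer end of another coding gene within 1000 bp of the gene's strongest outer-end summit. For Psma3 that is not the summit at its start, and Psma6 has no outer-end summit and was counted without a check. Psmd10 is also among the 22, although the start of Atg4a lies 196 bp away. No inducible gene counted so, but only 2 of the 5 had a summit of at least 20-fold at the start at all. The share over all protein-coding genes was not computed, so these counts are not compared further.

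The regions that carried the end summits were of ordinary width. The median was 1386 bp (833 to 2887 bp) over the 42 genes and 1442 bp over the 12386 such regions of all protein-coding genes. The 5 inducible genes had a median of 1784 bp and the 35 constitutive genes 1319 bp. Each of the 5 inducible regions held more than 1 summit. Among the constitutive genes 18 of 35 (51.4%) did, and among all such regions 59.9%.

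Motifs were counted in the window from 250 bases before to 50 bases after each start, on both strands. A match is a description of letters and not a binding site. CCGGAA, the core bound by ETS factors, was in 17 of 30 constitutive windows (56.7%) and in none of the 5 inducible ones, against 21.2% of the 17274 protein-coding genes with a start. With so few inducible windows, a lack of matches there, for this motif or those below, cannot be told apart from the share of all genes. The genes with a match included subunits of every constitutive class, such as Psma5, Psmb4, Psmc1, Psmc6, Psmd4, Psmd11, Psme3 and Psme4. In Psme3 there were 3 matches, of which those 107 to 102 and 199 to 194 bases before the start are in capitals above. GGGCGG, the GC box bound by Sp factors, was in 19 of 30 constitutive windows (63.3%) and 3 of 5 inducible ones, against 49.8%. CCAAT, the NF-Y box, was in 12 of 30 and in Psmb9, against 42.7%, so that its share among the constitutive genes lay near that of all genes.

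The ARE core TGACNNNGC is bound by Nfe2l1 and Nfe2l2, of which Nfe2l1 raises proteasome genes when proteasome activity falls. It was in 6 of 30 constitutive windows, those of Psmb5, Psmb6, Psmc6, Psmd9, Psmd12 and Psme4, and in no inducible one, against 14.9% of genes. In Psmb5 it reads TGACGTCGC, 47 to 39 bases before the start, and in Psmb6 TGACGGAGC in the 9 bases before the start. The AP-1 motif TGANTCA, the target of the factor that T-5224 inhibits, was in the windows of Psmb5 and Psmd9 alone (8.19% of genes), and the letters of TGANTCA and TGACNNNGC can overlap. The CRE motif TGACGTCA was in none (2.58% of genes), and the NRF1 motif GCATGCGC was in Psma2 and Psmc5 (3.98%).

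Motifs of interferon and inflammatory signalling were each found in at most 1 of the 5 inducible windows. With so few windows these counts cannot be told apart from the shares of all genes. GAAANNGAA, a core for IRF factors, was in 1 inducible window, that of Psme1, where it reads TTCGCTTTC just after the start, and in 5 of 30 constitutive windows (16.7%), against 9.39% of genes. TTCNNNGAA, a STAT motif, was in Psmb8, where it reads TTCCCAGAA 97 to 89 bases before the start, and in Psmd2 (9.02% of genes). GGGANTTTC, a kB motif, was in Psma6 alone (1.27% of genes). These letters describe windows around annotated starts. The stronger Psmb8 and Psmb10 summits, 513 bp before and 1309 bp after the start, lie outside them, and their sequence was not used here.

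**Figure D4:**
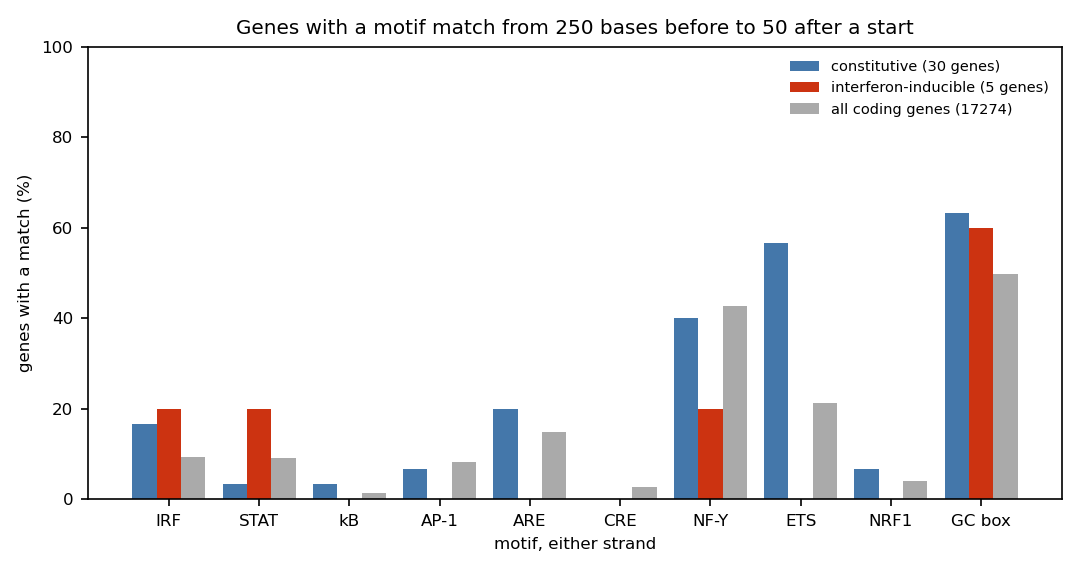
Percentage of genes with at least 1 match to each motif, on either strand, from 250 bases before to 50 bases after an annotated start, for 30 constitutive genes (blue), 5 inducible genes (red) and 17274 protein-coding genes (grey). The ETS core stands out among the constitutive genes at 56.7% against 21.2% of all genes. No inducible window held it, but 5 windows are too few to tell this apart from the share of all genes.

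Regions whose strongest summit lay more than 1000 bp from any end of a protein-coding gene were assigned to the nearest such gene within 100 kb, and 84 were assigned to the 46 genes. Of these 84, 2 reach back to an outer end and are the same regions that carry the end summits of Psma3 and Psmb10. At least 1 such region was found for 32 genes (69.6%), against 69.6% of all protein-coding genes, and the median was 1.00 per gene against 2.00. Their median fold was 4.52, against 4.64 for all regions of this kind. The share of genes with a region and the fold thus lay near the background, while the number of regions per gene lay below it. Nearness does not show that a region acts on the gene. The inducible genes had 1 region among them, the Psmb10 site inside the gene, and the other 4 had none.

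The genes with the most regions were Psma6 with 10, Psme4 with 9 and Psmd7 with 6, and 43 of the 84 regions lay inside the gene they were assigned to. Of the 84, 9 (10.7%) reached 20-fold, against 8.72% of all regions of this kind. Of the 9, 3 were annotated starts of the gene itself that lie inside its outer bounds: Psma3 (41.5-fold), Psma6 (36.2-fold) and a second start of Psmc2 (26.7-fold). The strongest of the others lay 3946 bp from an end of Psmd4 (chr3:95027107-95029313, 37.6-fold, 33.6 to 41.9). Next was a region 4219 bp from an end of Psmc6 (chr14:45325180-45326253, 36.3-fold, 32.4 to 40.5). A region 24869 bp from an end of Psma6 (chr12:55442699-55443937) had 27.2-fold (23.9 to 31.0). The Psma3 region at 28.9-fold (chr12:70967821-70970275) had its strongest summit 1020 bp from the gene's outer end and so lay at the limit of the window.

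**Figure D5:**
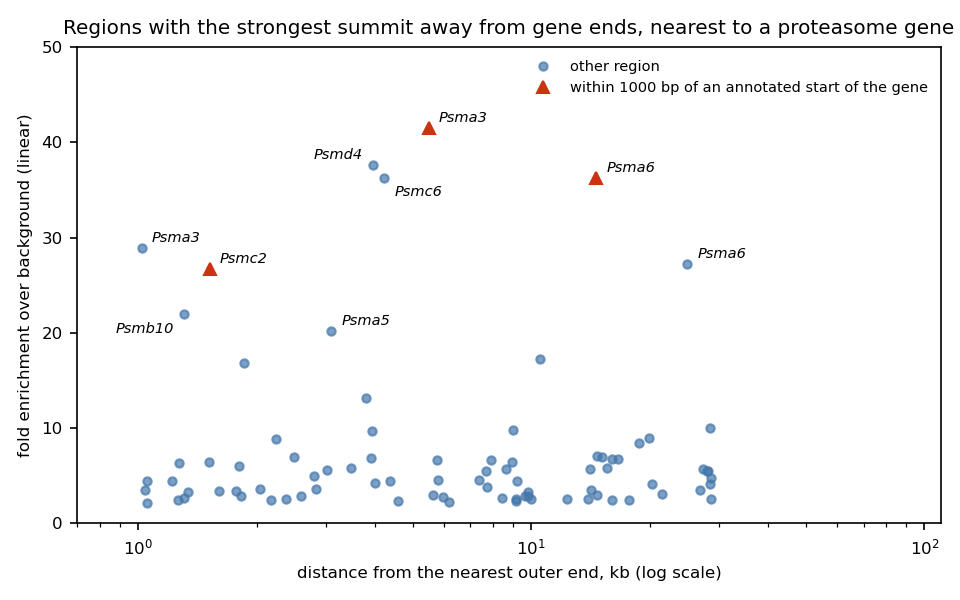
The 84 regions with the strongest summit more than 1000 bp from a gene end and a proteasome gene nearest, with the distance of that summit from the gene's nearest outer end in kb (log scale) against the linear fold of the strongest summit. Triangles are annotated starts inside the bounds of the same gene. Most regions lie near the median of 4.52-fold, and the 9 of at least 20-fold are named.

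Most partners of the proteasome also had a strong summit at an outer end. Of 20 genes for assembly, regulation and substrate shuttling, 18 had a summit there and 17 one of at least 20-fold. Their median was 35.9-fold. Among all protein-coding genes the shares were 64.3% and 39.7%. Vcp, the segregase that extracts ubiquitinated proteins, had 67.6-fold, and the shuttle gene Rad23b had 66-fold. Psmf1, an inhibitor of the core, and Ecpas, which binds the particle, had none at an end but 21.0-fold and 24.2-fold at an annotated start. Pomp, the maturation factor of the core, had 25.2-fold. Psmg3, which encodes a chaperone of core assembly, had 14.0-fold (11.7 to 16.8), below all 30 constitutive genes with a start. All 7 genes of the pathway that activates proteasome genes had a summit (median 49.0-fold), with Nfe2l1 at 62.1-fold and Nfe2l2 at 55.6-fold.

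Antigen-processing genes, of which Tap1 and Tap2 adjoin Psmb8 and Psmb9, varied as well. All 13 had an end summit (median 33.5-fold), led by the chaperone genes Calr (71.4-fold) and Canx (67.5-fold). Tap1 shared its 33.5-fold summit with Psmb9. Tap2, the gene of the second transporter subunit on the far side of Psmb8, had 10.7-fold (8.61 to 13.1). All 12 interferon-signalling genes had a summit (median 40.9-fold), among them the receptor genes Ifngr1 (78.7-fold) and Ifnar1 (61.4-fold). Irf9, whose end adjoins the far end of Rnf31 near Psme2, had 35.1-fold. These are descriptions of lists, beside a background of 64.3% of genes with a summit and a median of 9.62-fold.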

How the data were processed

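Bulk ATAC-seq libraries of mouse colonic organoids (4 groups, 1 library each) were represented by 1 deposited narrowPeak list. Per the submitters' processing notes, Bowtie2 and MACS2 were run with build mm10. The sources used here do not give their versions, thresholds, filters on duplicate or multiply mapped reads, the libraries called on or the depth of each library. The deposited score equals 10 times the −log10 q-value cut to a whole number in 100% of records. The deposited fold is a linear ratio over background. The deposited −log10 q-value was used as a filter only, and its lowest value was 1.51. The deposited summit offset, counted from 0, gave 1-based positions.

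Folds times the estimated constant (8.63 when rounded) lay within 0.01 of whole numbers. Peaks have no correction for copy number or mappability here. Gene bounds came from the RefSeq gene table and starts, with 17274 of 21631 protein-coding genes matched, from its promoter table (GRCm38.p6). No protein table was used here, so protein identity was not computed. The summit search was tested on simulated data: 200 of 200 planted summits and 20 of 20 planted motifs were recovered. The planted summits were far stronger than those of the genes described here. The test therefore checks that the search runs as written, not how it handles close or similar summits. Python 3.11.15, pandas 2.3.3 and scipy 1.17.1 were used. No test was run, since genes are not replicates. Ratios of pileups have exact binomial intervals.

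Genes named were the inducible members, their counterparts, members without an end summit, the 5 highest and 5 lowest others, those with the most or strongest distal regions, and those sharing an end. Of each pathway list the 2 strongest and the first 2 without a summit, and neighbours of members, were named. One gene of the leukocyte list is not reported here and was left out of its counts. Further members, Pomp, Psmg3 and epithelial markers were named after their values were seen, to complete the groups. The members and lists were chosen with earlier results of these data known. The 250 bp start window and its alternatives, the divergent starts and the marking of distal regions at annotated starts were chosen after seeing the data.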

Additional observations from a re-analysis of the deposited data

How the results depend on the processing

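Of 130 alternative values, 52 concerned group counts, medians and ratios, of which 42 held (counts to within 1.5 times, medians to within the Poisson interval of a pileup of that height, the ratio to within its exact binomial interval) and 10 moved further; of 78 values for single genes 72 held and 6 moved. Counts, medians and folds of single genes have no direction that could change. Only the ratio of the inducible median to that of the other genes has a direction. It was below 1 at every setting, from 0.387 to 0.693. With a window of 500 bp in place of 1000 bp around outer ends, the median of the inducible genes fell from 22.0 to 12.3-fold. Its ratio to the median of the other genes fell from 0.693 to 0.387. Both fell because the Psmb8 summit 513 bp away is then left out. With a start window of 100 bp in place of 250 bp, the inducible median was 0 instead of 12.3, the constitutive median 28.2 instead of 33.2, and 1 inducible gene instead of 2 reached 20-fold. Distal regions fell from 84 to 50 when a −log10 q of at least 10 was required. With the 250 bases before the start alone, motif matches went from 6 to 3 genes for IRF, from 2 to 1 for STAT, from 1 to 0 for kB and from 2 to 1 for AP-1. No paired analysis was possible because each group holds 1 library, the groups share a single replicate number and no file gives a value per library; for the same reason no replicate could be left out. The single background value and the unknown library depths limit what heights can show between sites.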
